A study of Mus musculus with 2 samples.

Results

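The collagen gene family was measured by RNA-seq in the heart of mouse embryos at day 15.5 of development. Members were all protein-coding genes of the deposited gene tables whose symbol has the form Col, a number, a, a number, and 44 such genes were found among 21474 protein-coding genes and 43346 Ensembl genes in all. There was 1 group with 2 libraries. Both came from heart tissue of strain B6NCrl embryos, healthy and with males and females pooled, with no treatment or engineered allele named in the labels. Replicate 1 held the hearts of 78 embryos and replicate 2 those of 62 embryos; values thus vary over pools of hearts, and variation among individual embryos was not measured. Each library was made from 10 ng of RNA longer than 200 nt with spike-in RNA added. The molecule is labelled total RNA, while a linked kit manual is for a method that primes on poly(A) tails, and the sources used here do not settle which applies.

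Collagens are secreted or membrane-bound proteins in which 3 α chains wind into a triple helix, and each chain is made by its own gene. Fibrillar collagens build the cables of the extracellular matrix, type IV collagens form the sheet of the basement membrane, type VI collagens form beaded microfilaments, and FACIT collagens (fibril-associated collagens with interrupted triple helices) sit on the surface of fibrils. In the embryonic heart, collagens are known as products of fibroblasts, valve mesenchyme and the epicardium, while type IV chains also line endothelium and muscle cells. Levels are given as TPM, in which counts are divided by length and scaled to a common total, so that chains of unequal length can be compared. The tissue is a bulk sample, in which fewer cells of a type and less RNA per cell cannot be told apart.

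The libraries held 41221435 and 38457396 counts on Ensembl genes, of which collagen genes took 447993 (1.09%) in replicate 1 and 519435 (1.35%) in replicate 2. All 10 cardiomyocyte markers reached 1 TPM in each library, with a summed level of 31189.8 TPM in replicate 1 and 27194 TPM in replicate 2, led by the myosin light chain Myl2, and all 10 fibroblast and valve mesenchyme markers were detected (962 and 951 TPM). Replicate 2 stood apart by markers of other organs. Thymus markers summed to 16.8 TPM in replicate 1 and 175 TPM in replicate 2, liver markers to 51.6 and 224 TPM, and lung and airway epithelium markers to 133 and 336 TPM. Spike-ins took 1.58% of counts in replicate 1 and 3.12% in replicate 2. Every collagen value is therefore given for each library. With 1 group of 2 libraries no test between groups exists, and 2 libraries allow an exact sign-flip p no lower than 0.5, so all results are descriptions with the mean ± SD (n = 2) as the spread.

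Of the 44 collagen genes, 32 (72.7%) reached 1 TPM in both libraries, against 58.2% of all protein-coding genes. The median level was 7.12 TPM over the members and 3.62 TPM over protein-coding genes, and among genes at 1 TPM or more both medians were 15.8 TPM. Just inside the threshold stood Col24a1, a minor fibrillar chain, with 1.29 and 1.22 TPM, and just outside stood Col5a3, with 0.940 TPM in replicate 1 and 2.61 TPM in replicate 2. Of the detected chains, 18 were above 10 TPM in both libraries, 4 of these above 100 TPM, and 14 lay lower. Summed collagen TPM was 2726 in replicate 1 and 3598 in replicate 2, or 0.281% and 0.384% of the TPM of all genes. The 3 highest chains, Col3a1, Col1a1 and Col1a2, held 72% of collagen TPM in replicate 1 and 71.8% in replicate 2.

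**Figure D1:**
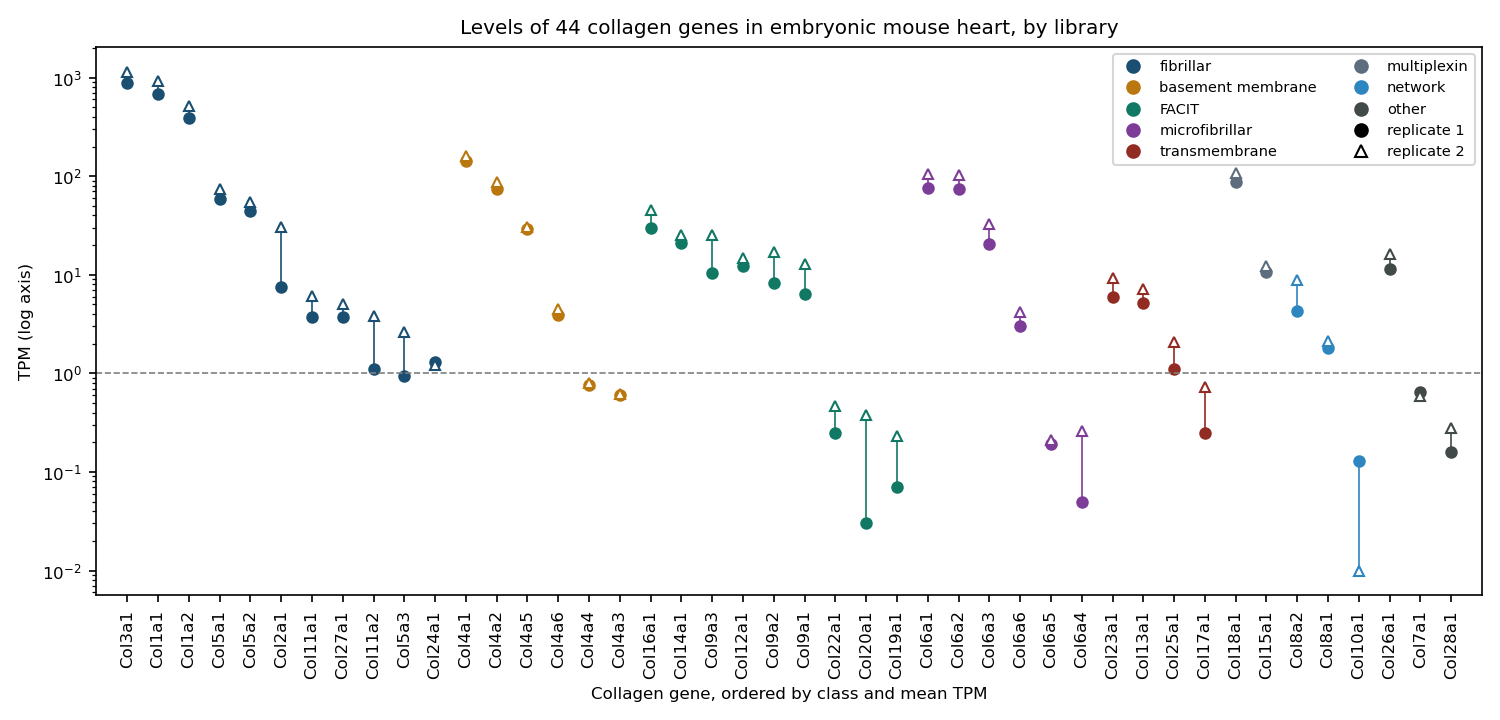
TPM of each of the 44 collagen genes on a log axis, by class and then by mean level; filled circles are replicate 1, open triangles replicate 2, and the dashed line is the detection threshold of 1 TPM. Over all transcripts Col3a1 stands highest at 889 and 1142 TPM. Among fibrillar chains the gap between libraries is wide for Col2a1 at 7.43 and 30.2 TPM. It is also wide for Col11a2 (1.11 and 3.78 TPM) and Col5a3 (0.940 and 2.61 TPM).

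Fibrillar chains held 76.4% of collagen TPM in replicate 1 and 76.8% in replicate 2 (76.6% ± 0.240, SD, n = 2), and 10 of 11 members were detected. Col3a1 (ENSMUSG00000026043), which makes the homotrimeric type III collagen of distensible tissues and vessel walls, was measured at 889 and 1142 TPM (1015 ± 178), rank 90 among protein-coding genes. Col1a1, the α1 chain of type I collagen, the main load-bearing fibril, was measured at 683 and 923 TPM (803 ± 169, rank 119). Col1a2, its α2 chain, was measured at 389 and 520.4 TPM (455 ± 92.9, rank 241). These chains were each higher in replicate 2, and their order over all transcripts was the same in both libraries. Of the Col3a1 level, 219.6 and 319 TPM lay in Col3a1-205, a 737-nt form from the 3′ part of the gene. The ranges of Col3a1 and Col1a1 over the libraries overlapped, while Col1a2 lay below both.

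In type I collagen the α1 chains outnumber the α2 chain. The Col1a1 to Col1a2 ratio of TPM was 1.76 in replicate 1 (exact 95% interval 1.74 to 1.77) and 1.77 in replicate 2 (1.76 to 1.79). The libraries differed by less than these intervals. All intervals given here cover counting error only, because they are built from read counts taken as independent. The reads carry no stated molecular identifiers, so reads copied from the same molecule could not be told apart and the intervals may be too narrow. Col1a1 stood below Col3a1 in both libraries, at a ratio of 0.768 (0.762 to 0.774) and 0.808 (0.802 to 0.814). That order depended on the measure, since in counts Col1a1 exceeded Col3a1 by a log2 ratio of 0.07 and 0.19. Between full-length transcripts in TPM, Col1a1-201 (681 and 916) also stood above Col3a1-201 (664 and 817). Col1a1 lies at chr11:94936224-94953042 and Col1a2 at chr6:4504814-4541544 (GRCm38), so the chains of type I collagen come from different chromosomes.

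Type V collagen is a minor component within type I fibrils and is known to set their diameter. Col5a1 was measured at 58.8 and 74.1 TPM, and Col5a2 at 44.3 and 54.2 TPM. The ratio of Col5a1 to Col5a2 was 1.33 (1.29 to 1.36) in replicate 1 and 1.37 (1.33 to 1.40) in replicate 2. Col5a1 stood at 0.0861 of Col1a1 in replicate 1 and 0.0803 in replicate 2. The remaining type V chain, Col5a3, was far lower, at 0.0160 of Col5a1 in replicate 1 (0.0137 to 0.0185) and 0.0352 in replicate 2 (0.0320 to 0.0387), and these intervals do not overlap. Col5a2 and Col3a1 are neighbours on chromosome 1, transcribed toward each other with 24614 bases between their ends, and Col5a2 stood at 0.0498 and 0.0475 of Col3a1.

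Promoter sequence was described for the chains that had a promoter window. RefSeq windows of 250 bases before to 50 bases after the start (GRCm38.p6) were found for 35 of the 44 genes, 38 windows in all. No window was found for Col1a1, Col2a1, Col4a3, Col5a2, Col9a3, Col12a1, Col14a1, Col22a1 and Col26a1. The Col3a1 and Col1a2 windows are shown because they belong to abundant chains of the fibrils and differ in GC content, at 37.7% and 61.0%. The Col3a1 value is the lowest of the 38 windows, so the contrast follows from the choice. Capitals mark the letters of the TATA box (TATAAA), those of the CCAAT box and those of the GC box (GGGCGG). The search covered both strands, where the reverse complements read TTTATA for the first, ATTGG for the second and CCGCCC for the last.
Col3a1 promoter, chr1:45311288-45311587, + strand: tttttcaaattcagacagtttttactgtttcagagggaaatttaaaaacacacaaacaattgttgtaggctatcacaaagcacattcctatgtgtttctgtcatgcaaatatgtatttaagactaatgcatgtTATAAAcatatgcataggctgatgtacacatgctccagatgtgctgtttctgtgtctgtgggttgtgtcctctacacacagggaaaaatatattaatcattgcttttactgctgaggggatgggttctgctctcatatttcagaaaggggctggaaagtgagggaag
Col1a2 promoter, chr6:4505368-4505667, + strand: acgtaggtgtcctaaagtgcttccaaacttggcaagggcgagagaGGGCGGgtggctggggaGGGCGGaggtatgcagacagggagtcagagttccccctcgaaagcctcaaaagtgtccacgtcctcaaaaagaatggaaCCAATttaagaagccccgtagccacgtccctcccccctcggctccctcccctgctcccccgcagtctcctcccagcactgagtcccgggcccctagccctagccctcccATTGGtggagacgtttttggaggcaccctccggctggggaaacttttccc
The Col3a1 window holds 1 TATAAA, no other of these motifs and no CpG dinucleotide. The Col1a2 window holds 2 CCAAT, 2 GGGCGG and 13 CpG dinucleotides. In the GENCODE annotation Col1a2-201, with 97.0% and 97.1% of Col1a2 TPM, starts at chr6:4505493, inside this window, so the annotated starts differ. Motifs outside a window were not searched for, and the distance of a motif from the start was not weighed. Over the 38 collagen windows GGGCGG was found in 60.5%, against 35.7% of 32851 windows of all genes, and the median GC content was 59.8% against 52.7%. The collagen windows are not all independent. Col6a2, Col9a1 and Col18a1 each have more than 1, and the windows of Col6a2 overlap, as do those of Col4a1 and Col4a2. CCAAT was found in 34.2% against 37.4%, TATAAA in 13.2% against 13.6%, and the SOX-type letters ACAATG in 2.63% against 12.6% and ACAAAG in 13.2% against 18.7%. Matches on both strands were counted, overlapping matches included, and a match is a description of letters only.

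The remaining fibrillar chains were low. Col2a1, the homotrimer of cartilage and vitreous, was measured at 7.43 TPM in replicate 1 and 30.2 TPM in replicate 2 (18.8 ± 16.1). Col11a1, which nucleates type II fibrils, was measured at 3.75 and 6.06 TPM, and its partner Col11a2 at 1.11 and 3.78 TPM. The Col11a1 to Col11a2 ratio was 3.38 (2.79 to 4.11) in replicate 1 and 1.60 (1.44 to 1.78) in replicate 2. The ratio of Col2a1, which also supplies a chain of type XI, to Col11a1 was 1.98 (1.80 to 2.18) and 4.98 (4.67 to 5.31). Unlike Col1a1/Col1a2 and Col5a1/Col5a2, these ratios differed between the libraries by more than counting error, since their intervals do not overlap. Col27a1, a fibrillar chain of cartilage and developing tissues, was measured at 3.69 and 5.02 TPM.

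The deposited transcript table separates the main forms of Col2a1 by exon 2, a 204-nt exon at chr15:98000403-98000606 (GRCm38, within the Col2a1 gene on the minus strand) that codes for a cysteine-rich domain. The form with exon 2 is known from progenitors of cartilage and non-cartilage tissues, and the form without it from mature chondrocytes. The form with exon 2 held 57.2% of Col2a1 TPM in replicate 1 and 54.2% in replicate 2, and the form without it 33.1% and 38.6%. The form with exon 2 thus led in both libraries, while its level went from 4.25 to 16.4 TPM and that of the other form from 2.46 to 11.7 TPM. These shares are estimates by the authors' quantifier and not counts of junction reads.

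Type IV chains held 9.26% of collagen TPM in replicate 1 and 7.85% in replicate 2, with 4 of 6 detected. Col4a1 was measured at 144 and 159 TPM (151 ± 11.1) and Col4a2 at 74.3 and 87.3 TPM (80.8 ± 9.18); together they make the network found in nearly all basement membranes, in which α1 chains outnumber α2. The Col4a1 to Col4a2 ratio was 1.93 (1.89 to 1.97) in replicate 1 and 1.82 (1.79 to 1.86) in replicate 2, intervals that do not overlap. Col4a5, a chain of the specialised networks, was measured at 29.1 and 30.2 TPM, and Col4a6 at 3.89 and 4.46 TPM. The Col4a5 to Col4a6 ratio was 7.48 (6.95 to 8.06) and 6.76 (6.28 to 7.29). It includes Col4a5-204, a 3511-nt form from the 3′ part of Col4a5 at 12.1 and 13.0 TPM. The full-length Col4a5-202 stood at 16.7 and 16.6 TPM, while all Col4a6 TPM lay in its full-length transcript. Col4a3 and Col4a4, known from kidney and lung basement membranes, were below 1 TPM in both libraries, with 0.610 and 0.620 TPM for Col4a3 and 0.760 and 0.790 TPM for Col4a4. Which of the last pair is higher depended on the measure, since over protein-coding transcripts Col4a3 exceeded Col4a4 by a ratio of 1.37 and 1.32.

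The 6 type IV genes lie in 3 head-to-head pairs, each transcribed away from a shared start region. In the GENCODE annotation, Col4a1 and Col4a2 overlap by 22 bases on chromosome 8, Col4a4 and Col4a3 stand 71 bases apart on chromosome 1, and Col4a6 and Col4a5 stand 1308 bases apart on chromosome X. Levels within a head-to-head pair were closest for Col4a3 and Col4a4 and furthest apart for Col4a5 and Col4a6. The Col4a1 and Col4a2 windows are shown because they face each other and share 78 bases.
Col4a1 promoter, chr8:11312777-11313076, - strand: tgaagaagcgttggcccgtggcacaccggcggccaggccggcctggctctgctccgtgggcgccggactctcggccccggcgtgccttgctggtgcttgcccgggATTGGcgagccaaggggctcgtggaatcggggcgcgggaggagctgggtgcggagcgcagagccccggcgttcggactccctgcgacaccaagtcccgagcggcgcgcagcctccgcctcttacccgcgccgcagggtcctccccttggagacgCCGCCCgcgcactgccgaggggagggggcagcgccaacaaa
Col4a2 promoter, chr8:11312555-11312854, + strand: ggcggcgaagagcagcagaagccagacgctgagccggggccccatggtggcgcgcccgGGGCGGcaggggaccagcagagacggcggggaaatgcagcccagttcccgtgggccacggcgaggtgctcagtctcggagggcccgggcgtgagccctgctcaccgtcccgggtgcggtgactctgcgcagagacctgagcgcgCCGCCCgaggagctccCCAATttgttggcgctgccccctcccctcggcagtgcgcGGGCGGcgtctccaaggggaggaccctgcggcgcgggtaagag
Each window is printed along its own gene's strand, with capitals as above. The Col4a1 window is 74.0% GC with 37 CpG dinucleotides, 1 CCAAT and 1 GGGCGG, and the Col4a2 window is 73.7% GC with 33 CpG dinucleotides, 1 CCAAT and 3 GGGCGG. The GGGCGG of the Col4a1 window lies in the shared bases and is the same site as the last GGGCGG of the Col4a2 window. Reads confined to the 22 bases where the annotated genes overlap cannot be given to either gene where strand was not used in counting. The sources used here do not state whether it was used.

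Microfibrillar type VI chains held 6.37% and 6.81% of collagen TPM, with 4 of 6 detected. Type VI collagen anchors cells to the surrounding matrix and is assembled from equal numbers of α1, α2 and α3 chains, the last of which α4, α5 or α6 can replace. Col6a1 was measured at 75.3 and 105 TPM and Col6a2 at 74.7 and 103 TPM, a ratio of 1.01 (0.979 to 1.04) in replicate 1 and 1.02 (0.997 to 1.05) in replicate 2. Both intervals include 1, so no difference between Col6a1 and Col6a2 was detectable at this depth. The genes lie on the same strand of chromosome 10, 85161 bases apart.

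The partner chain Col6a3 was lower, at 20.3 and 32.9 TPM, or 0.270 (0.259 to 0.281) and 0.313 (0.302 to 0.325) of Col6a1. A short transcript with a retained intron, Col6a3-206 of 646 nt near the 3′ end of the gene, held 47.3% and 46.6% of Col6a3 TPM. Over protein-coding transcripts alone Col6a3 stood at 0.138 and 0.162 of Col6a1. The alternative chain Col6a6 was measured at 3.0 and 4.2 TPM, or 0.148 and 0.128 of Col6a3 and, over protein-coding transcripts, 0.290 and 0.247. Its relatives Col6a4, with 0.050 and 0.260 TPM, and Col6a5, with 0.190 and 0.210 TPM, were below the detection threshold.

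**Figure D2:**
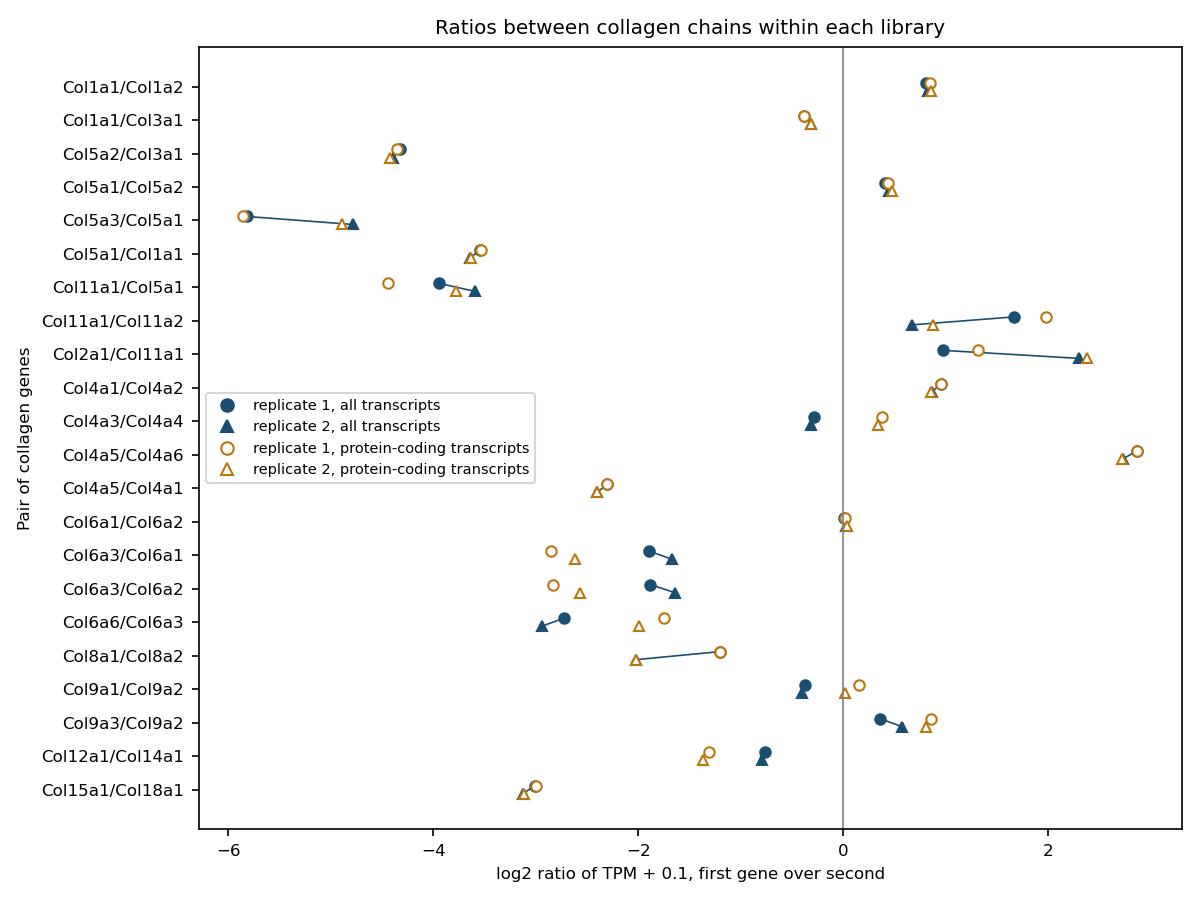
Log2 ratio of TPM + 0.1 between 22 pairs of collagen genes; circles are replicate 1 and triangles replicate 2, filled for all transcripts and open for protein-coding transcripts only. The 22 pairs keep their side of the line at 0 in both libraries, and 2 pairs, Col4a3/Col4a4 and Col9a1/Col9a2, lie on the other side over protein-coding transcripts.

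FACIT chains held 3.25% of collagen TPM in replicate 1 and 3.92% in replicate 2, with 6 of 9 detected. Col16a1, found at the edge of fibrils and near basement membranes, was the highest over all transcripts, at 30.0 and 45.2 TPM. Col14a1, which binds type I fibrils and limits their fusion, was measured at 20.9 and 25.4 TPM, and Col12a1, its close relative that bridges fibrils, at 12.3 and 14.7 TPM. Over protein-coding transcripts the order of the first pair turned, with 14.9 and 23.2 TPM for Col16a1 and 20.9 and 25.4 TPM for Col14a1. The Col12a1 to Col14a1 ratio was 0.590 (0.557 to 0.625) and 0.578 (0.547 to 0.610), so these relatives kept one ratio in both libraries within counting error. Over protein-coding transcripts it was 0.400 and 0.386. Col22a1, Col20a1 and Col19a1 were all below 1 TPM in both libraries, between 0.0300 and 0.470 TPM.

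Type IX collagen decorates type II fibrils, and its 3 chains, Col9a1, Col9a2 and Col9a3, form a heterotrimer with equal parts. Col9a3 was measured at 10.5 and 25.2 TPM, Col9a2 at 8.18 and 16.9 TPM, and Col9a1 at 6.32 and 12.8 TPM. All were higher in replicate 2. The Col9a1 to Col9a2 ratio was 0.773 (0.688 to 0.867) and 0.757 (0.696 to 0.823), and over protein-coding transcripts 1.11 and 1.02. The Col9a3 to Col9a2 ratio was 1.29 (1.16 to 1.43) and 1.49 (1.38 to 1.61), and over protein-coding transcripts 1.82 and 1.76. The chains thus differed by less than 2-fold within a library, while the sum over type IX moved between libraries.

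Col9a1 has an upstream start, which gives the long chain with a large amino-terminal domain known from cartilage, and a downstream start, which gives a short chain known from the eye and other tissues. The transcript from the downstream start held 93.7% of Col9a1 TPM in replicate 1 and 80.4% in replicate 2. The transcript from the upstream start was measured at 0.390 TPM (47.6 expected counts) in replicate 1 and 2.40 TPM (259 expected counts) in replicate 2, a 6.15-fold difference, against 5.92 and 10.3 TPM (1.74-fold) from the downstream start. Both starts have a RefSeq window, and both are shown because the data separate their use.
Col9a1 upstream start, chr1:24177360-24177659, + strand: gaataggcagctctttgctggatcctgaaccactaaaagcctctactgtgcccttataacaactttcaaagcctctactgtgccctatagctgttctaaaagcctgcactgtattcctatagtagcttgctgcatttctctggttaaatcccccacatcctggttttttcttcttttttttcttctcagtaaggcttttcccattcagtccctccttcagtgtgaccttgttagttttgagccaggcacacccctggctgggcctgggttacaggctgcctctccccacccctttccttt
Col9a1 downstream start, chr1:24194953-24195252, + strand: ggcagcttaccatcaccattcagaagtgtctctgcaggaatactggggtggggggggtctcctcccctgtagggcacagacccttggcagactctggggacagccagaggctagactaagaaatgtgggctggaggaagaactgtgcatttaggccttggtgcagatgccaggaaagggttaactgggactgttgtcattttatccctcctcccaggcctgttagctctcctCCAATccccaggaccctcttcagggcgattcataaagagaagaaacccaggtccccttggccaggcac
Neither window holds TATAAA or GGGCGG, and the downstream window holds 1 CCAAT. Their GC contents are 47.3% and 55.7%, with 0 and 1 CpG dinucleotides.

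The multiplexins, Col15a1 and Col18a1, are basement membrane proteoglycans whose carboxy-terminal ends can be released as antiangiogenic fragments. They held 3.58% of collagen TPM in replicate 1 and 3.34% in replicate 2. Col18a1 was measured at 86.8 and 108 TPM (97.4 ± 15), rank 1297, and Col15a1 at 10.7 and 12.3 TPM, a ratio of Col15a1 to Col18a1 of 0.123 (0.116 to 0.131) and 0.114 (0.108 to 0.120). The next chains below Col4a1 ran from Col18a1 through Col6a1 and Col6a2 to Col4a2 in both libraries, while their ranges over the libraries overlapped. Col18a1 overlaps the folate carrier gene Slc19a1 on the opposite strand, which stood at 7.89 and 12.3 TPM.

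Col18a1 also has an upstream start, known for the short form of vessels and basement membranes, and a downstream start, known for the longer forms of liver. The upstream start held 98.1% of Col18a1 TPM in replicate 1 and 97.0% in replicate 2 (85.1 and 105 TPM). The downstream start was measured at 1.24 and 2.02 TPM, or 1.43% and 1.87%. The windows of the used and the little used start are set side by side.
Col18a1 upstream start, chr10:77166481-77166780, - strand: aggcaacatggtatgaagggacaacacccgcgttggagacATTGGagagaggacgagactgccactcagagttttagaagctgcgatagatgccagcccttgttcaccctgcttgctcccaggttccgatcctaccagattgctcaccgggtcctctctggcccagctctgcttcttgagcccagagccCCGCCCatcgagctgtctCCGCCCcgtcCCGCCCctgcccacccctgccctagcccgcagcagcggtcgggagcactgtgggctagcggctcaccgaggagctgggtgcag
Col18a1 downstream start, chr10:77113656-77113955, - strand: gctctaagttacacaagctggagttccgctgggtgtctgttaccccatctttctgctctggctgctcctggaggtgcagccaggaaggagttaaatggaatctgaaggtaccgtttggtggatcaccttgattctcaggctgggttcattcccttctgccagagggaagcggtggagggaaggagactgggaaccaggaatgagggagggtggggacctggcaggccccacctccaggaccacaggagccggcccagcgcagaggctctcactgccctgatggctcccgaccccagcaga
The upstream window is 63.3% GC with 16 CpG dinucleotides, 1 CCAAT and 3 GGGCGG. The downstream window is 59.7% GC with 6 CpG dinucleotides and none of the 3 motifs.

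Transmembrane collagens, which hold cells to their matrix and can be shed, took 0.458% and 0.535% of collagen TPM, with 3 of 4 detected. Col23a1 was measured at 5.97 and 9.32 TPM, Col13a1, known from the neuromuscular junction, at 5.17 and 7.15 TPM, and Col25a1, known from motor innervation of muscle, at 1.10 and 2.06 TPM. Col17a1, a component of epithelial hemidesmosomes, was below the threshold at 0.250 and 0.720 TPM. Among network-forming chains, Col8a2 was measured at 4.29 and 8.92 TPM and Col8a1 at 1.81 and 2.13 TPM, a Col8a1 to Col8a2 ratio of 0.422 (0.366 to 0.486) and 0.239 (0.209 to 0.272). Type VIII collagen is known from vessel walls and from the cornea. Col10a1, the product of hypertrophic chondrocytes, was listed at 0.130 and 0.0100 TPM, from 13 counts and 1 count, and lies within Nt5dc1 on the opposite strand, which had 346 and 369 counts.

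Of the 3 chains in no other class, Col26a1 was detected at 11.5 and 16.2 TPM. Col7a1, the anchoring fibril of skin, was measured at 0.650 and 0.590 TPM, and Col28a1, known from peripheral nerve, at 0.160 and 0.280 TPM. In all, 12 collagen genes were below 1 TPM in a library, and none was at 0 counts in either. At this depth a count on 1 kb of RNA equals 0.0308 TPM (replicate 1) or 0.0345 TPM (replicate 2), so the lowest members rest on few counts. Col20a1 had 4 and 15 counts, and Col6a4 had 8 and 32 counts.

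The transcript tables show how the collagen TPM was divided among annotated forms. Of the 32 detected members, 29 had a protein-coding transcript in the lead, 20 had at least 90% of their TPM in protein-coding transcripts in both libraries, and 7 had less than 80%. The highest chains were simple, with 99.6% and 99.3% of Col1a1 TPM in Col1a1-201 and 97.0% and 97.1% of Col1a2 TPM in Col1a2-201. Col3a1 was divided, with 74.7% and 71.6% in the full-length Col3a1-201 of 5564 nt and 24.7% and 27.9% in Col3a1-205, a 737-nt form from the 3′ part of the gene. In 13 of 32 detected members a transcript that starts past 50% of the gene's span and ends within 10% of its 3′ end held at least 10% of TPM in both libraries, and 1 member, Col12a1, had such transcripts from the 5′ part. This criterion was set after the values were seen.

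Among these, the 833-nt Col16a1-207 held 35.5% and 30.3% of Col16a1 TPM, the 3511-nt Col4a5-204 held 41.5% and 43.1% of Col4a5 TPM, and the 1485-nt Col27a1-205 held 42.6% and 33.2% of Col27a1 TPM. Shares in the low chains differed more between the libraries. The retained-intron form Col11a2-207 held 46.9% of Col11a2 TPM in replicate 1 and 19.3% in replicate 2, and Col25a1-204, annotated for nonsense-mediated decay, held 12.1% and 39.6% of Col25a1 TPM. A short form counts for more TPM per read than a long one, so the level of a gene with such a form depends on how reads were assigned. Whether these forms are RNAs of their own or reads from the 3′ end of full-length RNA was not tested.

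**Figure D3:**
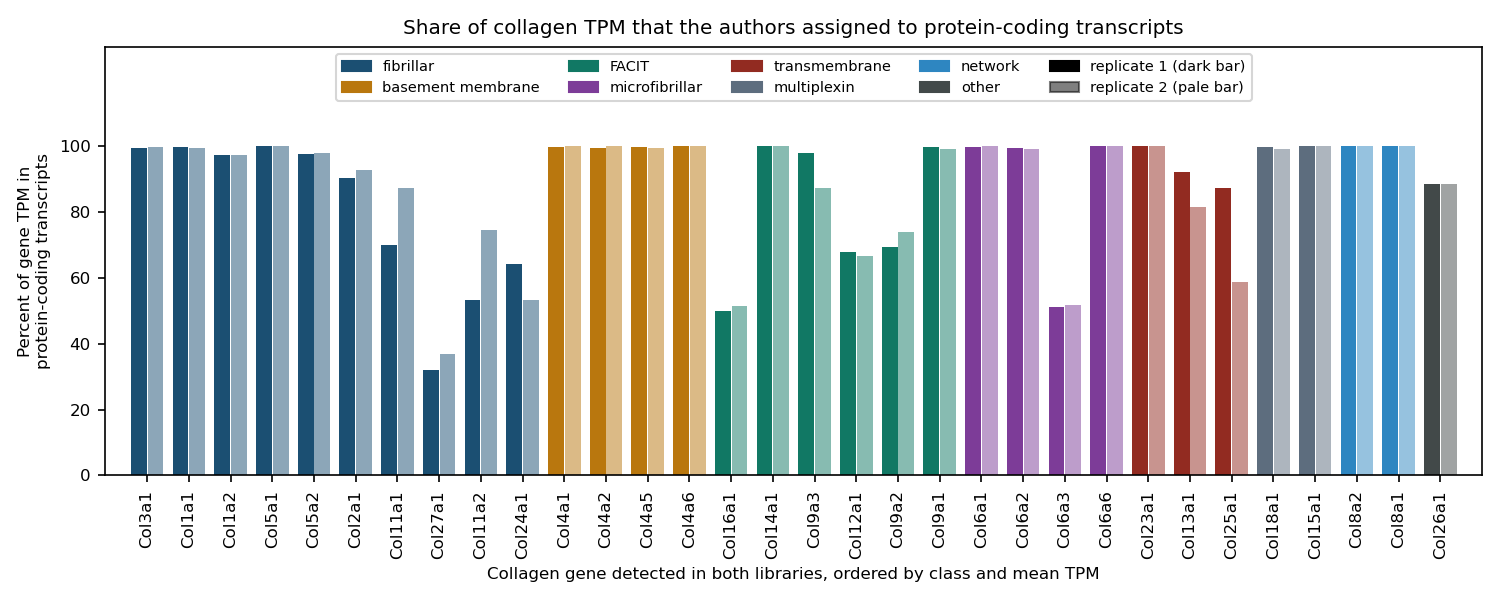
Percent of each detected collagen gene's TPM in transcripts annotated as protein-coding, by class; the dark bar is replicate 1 and the pale bar replicate 2, and the axis starts at 0. Col1a1 and Col4a1 stand near 100%, Col6a3 at 51.0% and 51.8%, and Col27a1 lowest in both libraries at 32.0% and 36.9%.

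Between the 2 libraries, the members furthest apart were Col11a2 and Col2a1, chains of cartilage-type collagens. None of the 6 type IV chains was past 1.5-fold, and neither was any tested microfibrillar (5), multiplexin (2) or network (2) chain. Classes this small would hold few calls at the shares of all genes given below. The comparison is replicate 2 over replicate 1 in counts scaled by edgeR's TMM factors, over the 41 members with at least 10 counts in both, and it has no replicate check because each side is 1 library. Past 1.5-fold, 12 of 41 members (29.3%) were higher in replicate 2, against 11.2% of all genes, and none was lower, against 4.76%. Past 2-fold, 5 members (12.2%) were higher, against 5.85% of all genes, and none lower, against 0.932%. The median log2 ratio was 0.24 over the members and -0.02 over all genes. Of the 12, 7 had their whole counting interval past 1.5-fold and 11 had it above a ratio of 1.

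The chain furthest from equality was Col11a2, with 126 counts in replicate 1 and 503 in replicate 2, 3.80-fold higher on the TMM scale (log2 1.92, interval 1.64 to 2.22). Col2a1 followed with 1082 and 4012 counts, 3.53-fold higher (log2 1.82, 1.72 to 1.92). The type IX chains moved by like amounts, with 1.86-fold for Col9a3, 1.84-fold for Col9a2 and 1.76-fold for Col9a1, and Col11a1 was 1.58-fold higher. These 6 cartilage-type chains, grouped after their values were seen, summed to 37.3 TPM in replicate 1 and 94.9 TPM in replicate 2, or 1.37% and 2.64% of collagen TPM. The group leaves out Col27a1 (1.29-fold, not called) and Col10a1 (13 counts and 1 count), which are also known from cartilage. Its rise is thus in part a result of the choice of members. The other 6 higher members were Col19a1 (2.76-fold), Col17a1 (2.39-fold), Col5a3 (2.31-fold), Col7a1 (1.65-fold), Col28a1 (1.54-fold) and Col25a1 (1.53-fold), of which Col19a1 rested on 10 and 29 counts and Col28a1 on 21 and 34 counts.

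The 6 type IV chains lay between a log2 ratio of -0.20 (Col4a5) and 0.00 (Col4a2). The fibrillar chains of types I, III and V other than Col5a3 lay between 0.06 (Col5a2) and 0.19 (Col1a1), and type VI chains with enough counts between 0.22 (Col6a2) and 0.41 (Col6a3). TPM stood higher than scaled counts in replicate 2, with a median log2 ratio of 0.46 over the members and 0.21 over all genes. Col7a1, against this, was higher in scaled counts but lower in TPM in replicate 2, and its share in protein-coding transcripts was 26.2% in replicate 1 and 57.6% in replicate 2. Col22a1 had 66 and 48 counts, 0.692 of the scaled count in replicate 2, with 0.250 and 0.470 TPM.

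**Figure D4:**
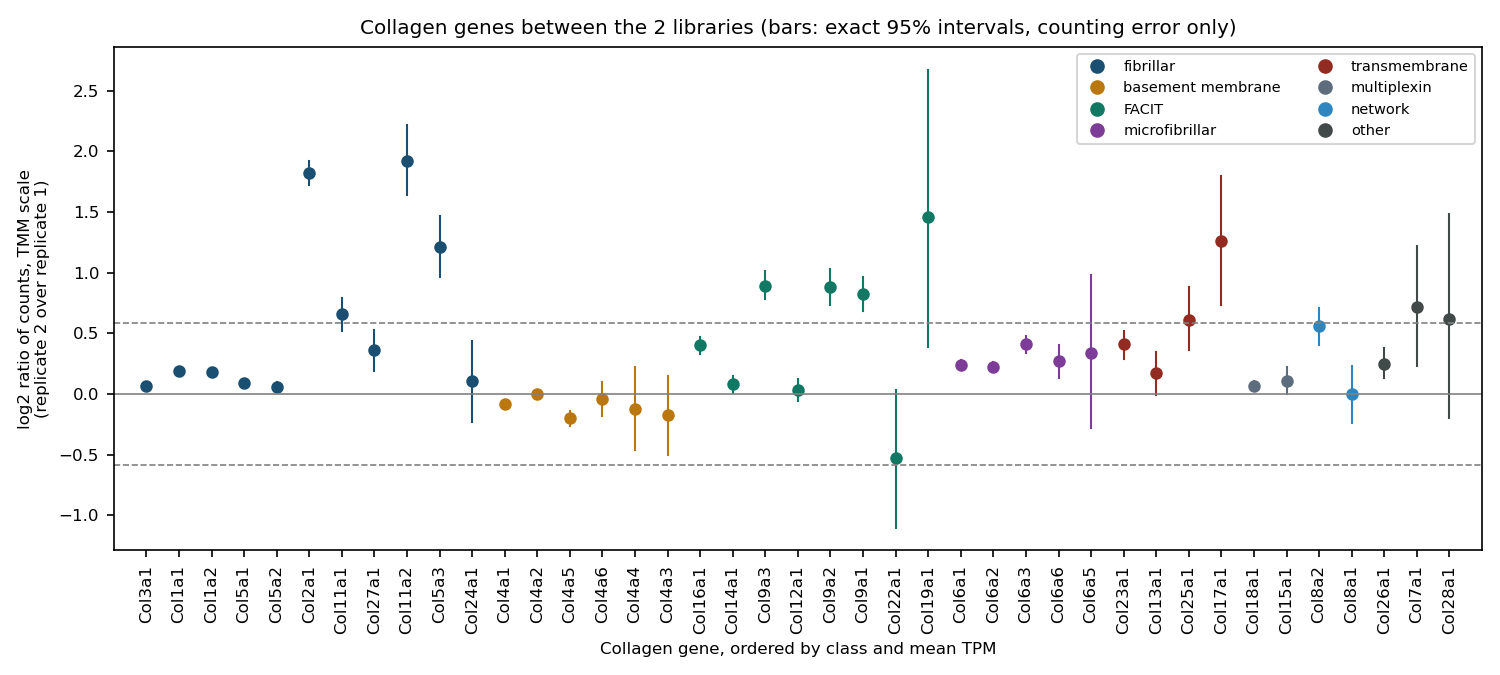
Log2 ratio of TMM-scaled counts, replicate 2 over replicate 1, for the 41 collagen genes that had 10 or more counts on each side; bars are exact 95% intervals for counting error and dashed lines mark 1.5-fold. Col11a2 and Col2a1 stand highest at 1.92 and 1.82, and the 6 type IV genes lie close to 0.

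The direction depended on the scaling. On the spike-in scale the median of all genes was -0.85, and that of the collagen genes was -0.59. On that scale 3 members were higher and 21 lower past 1.5-fold, and 27 of the 41 members changed direction, Col3a1, Col1a1 and Col1a2 among them. Of the 12 members called higher on the TMM scale, 5 changed direction, Col9a1, Col11a1, Col25a1, Col7a1 and Col28a1. Relative to the median of all genes, the collagen median stood 0.26 higher, a distance that a change of scale does not alter.

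Markers of other cells were compared between the same libraries. Over all tested genes 11.2% were higher past 1.5-fold in replicate 2 and 4.76% lower, and small counts in a list are near these shares. Of 12 cartilage markers, 10 had enough counts, 3 were higher past 1.5-fold and 1 lower, and their summed level was 31.6 TPM in replicate 1 and 48.5 TPM in replicate 2. Cnmd, the antiangiogenic chondromodulin of cartilage and cardiac valves, was 3.26-fold higher (2.86 and 9.93 TPM), Matn4, the highest of the list, stood at 6.92 and 12.2 TPM, and Ucma, the lowest, had 3 counts and 1 count. The other members past the fold rested on under 100 counts and are named after their values were seen, Matn1 at 3.38-fold, Matn3 at 2.21-fold and Prg4 at 0.435-fold. Sox9, a transcription factor of cartilage and valve mesenchyme that acts on Col2a1, stood at 20.4 and 22.8 TPM, 0.948-fold on the scaled counts. It belongs to the fibroblast and valve mesenchyme list and is named as an exception to the naming rule. All 7 thymus markers with enough counts, all 8 liver markers and 6 of 7 lung markers were higher in replicate 2. None of the 10 fibroblast and valve mesenchyme markers or the 10 endothelial markers (456 and 539.8 TPM summed) was past 1.5-fold in either direction. Of 10 smooth muscle and pericyte markers (1247 and 1323 TPM), Myh11 and Mylk were higher, and of 9 epicardial markers (166 and 225 TPM), Krt19 was higher. Among blood cells, Klf1, Hbb-y, Epb42 and Ermap of 7 erythroid markers were higher (951 and 1673 TPM), and Cd68 of 7 macrophage markers (125 and 185 TPM). Of 10 cardiomyocyte markers, Myl2 was lower past 1.5-fold (0.623-fold), and the median log2 ratio of that list was -0.44. No marker of these lists was at 0 counts in both libraries. The part of these cells in the collagen differences was not tested.

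The genes that make, export and shape collagen were described from lists of other genes of the pathway. Counts past 1.5-fold in these lists stand beside 11.2% of all tested genes higher in replicate 2 and 4.76% lower. All 21 genes of collagen synthesis, folding and export were detected, with a median of 43.5 TPM, and none was past 1.5-fold between the libraries. The highest was Serpinh1, the collagen chaperone HSP47, at 793 and 933 TPM (863 ± 98.8). Its level lay between those of Col3a1 and Col1a1 over all transcripts. The lowest was Colgalt2, a collagen galactosyltransferase, at 1.5 and 1.74 TPM. Of 14 genes of processing and crosslinking, 10 were detected, with a median of 8.84 TPM. The highest was Pcolce, which enhances removal of the carboxy-terminal propeptide, at 96.0 and 105 TPM, and the lowest was the protease gene Tll2 at 0.130 and 0.140 TPM. In this list 2 genes were higher in replicate 2, Pcolce2 by 2.67-fold (67 and 188 counts) and Loxl4, with under 100 counts and named after its value was seen, by 2.31-fold.

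Fibril-associated proteins had the highest median of these lists, 77.5 TPM, with 11 of 12 detected and none past 1.5-fold. Sparc, a collagen-binding glycoprotein, stood at 1707 and 1889.8 TPM, above every collagen gene, and Kera, a keratan sulfate proteoglycan of the cornea, at 0.0800 and 0.150 TPM. Of 10 collagen receptors and uptake genes, 6 were detected, with a median of 4.83 TPM. The integrin subunit Itgb1, shared by all collagen-binding integrins, stood at 295 and 282 TPM, and Gp6, the collagen receptor of platelets, at 0.380 and 0.200 TPM. Itga11, the fibrillar collagen integrin subunit, was 1.54-fold higher (68 and 110 counts) and Lair1, an inhibitory receptor of leukocytes, 2.06-fold higher (53 and 115 counts) in replicate 2. Of 13 breakdown genes 8 were detected, with a median of 14.2 TPM. Mmp2, a gelatinase, stood at 77.9 and 105 TPM, and Mmp1a had 0 counts in both libraries. Mmp9, the gelatinase of leukocytes and osteoclasts, was 5.58-fold higher in replicate 2 (51 and 299 counts), and Mmp13, with under 100 counts and named after its value was seen, 2.05-fold.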

How the data were processed

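The 2 libraries were taken as replicates of 1 group from the labels. Per the file headers and the description deposited with them, reads were aligned by the authors to the GENCODE M4 transcriptome of mm10. The sources used here do not name the aligner, the quantifier or the strand setting. Expected counts, as deposited, estimate the reads of each gene or transcript and share out reads that fit several features. The deposited TPM values are per effective length (length minus 99 bases for a single transcript) and summed over all features, spike-ins included. The deposited percent values divide a gene's TPM among its transcripts.

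Symbols and positions came from GENCODE M21 on the same build, which held 42462 of 43346 genes. Members and lists were chosen with earlier results of these data known. All collagen members could be named; of each other list, the highest, the lowest, those at 0 counts and those past 1.5-fold whose larger count was 100 or more were named, and exceptions are marked.

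Chain ratios were taken within each library from TPM, with 0.1 added before taking log2. Library ratios used expected counts rounded to whole numbers, the 17054 genes with 10 or more counts on each side and TMM factors (edgeR 4.0.16, R 4.3.3); calls were past 1.5-fold. Intervals were exact binomial (Clopper-Pearson) at 95%. The ratio script was tested on simulated data. Posterior mean TPM, CPM, protein-coding transcripts, other pseudocounts, filters, folds and scalings (DESeq2 1.42.0, totals, spike-ins) were alternatives. Total expected counts were 41883313 and 39697992. 1 of the marker lists is not reported here.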

Additional observations from a re-analysis of the deposited data

How the results depend on the processing

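No paired analysis was possible because the series holds 1 group. In CPM (counts scaled to a common total, not per length), collagen genes took 1.22% of the gene total in place of 0.332% (mean of the libraries), and over protein-coding transcripts 0.416%. Class shares in CPM were 77.2% fibrillar (76.6% in TPM), 10.7% basement membrane (8.55%), 2.53% FACIT (3.59%), 5.35% microfibrillar (6.59%), 0.435% transmembrane (0.497%) and 0.231% other (0.462%). Over protein-coding transcripts they were 77.5% fibrillar, 2.77% FACIT and 0.409% other, and posterior mean TPM gave 0.522% other.

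Log2 chain ratios in CPM were 0.99 for Col1a1/Col1a2 (0.82 in TPM), 0.79 for Col5a1/Col5a2 (0.43), 1.89 for Col11a1/Col11a2 (1.17), 0.07 for Col6a1/Col6a2 (0.02) and 0.71 for Col9a3/Col9a2 (0.47). Over protein-coding transcripts they were 0.85 for Col1a1/Col1a2, 0.46 for Col5a1/Col5a2, -2.73 for Col6a3/Col6a1 (-1.78) and 0.83 for Col9a3/Col9a2. Direction turned for Col1a1/Col3a1 (-0.34) to 0.13 in CPM, for Col9a1/Col9a2 (-0.38; -0.35 with a pseudocount of 1) to 0.08 in CPM and 0.09 over protein-coding transcripts, and for Col4a3/Col4a4 (-0.29) to 0.03 in posterior mean TPM, 0.08 in CPM and 0.36 over protein-coding transcripts. By construction, CPM leaves out length and the protein-coding sum leaves out forms of other annotated types. Short forms annotated as protein-coding, such as the 737-nt Col3a1-205, stay in that sum. Other causes were not tested.

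Spike-in scaling left 3 members higher and 21 lower in place of 12 and 0, and turned 27 of 41 members, among the 12 called members Col9a1 to -0.02, Col11a1 to -0.18, Col25a1 to -0.22, Col7a1 to -0.11 and Col28a1 to -0.21; the TPM ratio turned 9 of 41, among the called members Col7a1 to -0.12. Total gene counts turned 4 and DESeq2 size factors 1, none of them called. Past 2-fold 5 were higher, and with no filter 1 was lower (Col10a1). The count of detected chains was 32, and between 23 and 36 at minimums of 5 and 0.5 TPM. Over protein-coding transcripts only, it was 29. Of the alternative values for chain ratios, 117 moved by less than the spread, 31 by more and 6 turned; for library ratios of single genes these counts were 71, 87 and 6, where a turn was counted only for the 12 called members. Leaving out replicate 1 or 2 gave 33 and 32 detected chains. Depth limits the members under 10 counts, and the number of libraries limits all else.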
